A study of Mus musculus with 13 samples.

Results

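Chromatin accessibility was examined at 9 genes of the limb ectoderm, namely Trp63, Krt5, Krt14, Grhl2, Grhl3, Cdh1, Epcam, Esrp1 and Ovol1. A called region was assigned to a gene when its strongest summit lay within 100 kb of the gene body annotated in GENCODE M21 on mm10. Over 13 ATAC-seq libraries this gave 1548 distinct regions of 1292424, and after overlapping regions of 12 libraries were joined, 259 consensus regions of 252026. The study assayed mouse embryos at E12.5, of strain B6CBAF1, with 50000 cells per library and pools of several embryos from different litters per replicate. Wild-type (wt) embryos were compared with embryos homozygous for allele 542, in which a single copy of the HoxD enhancer II1, with an HBB promoter and a LacZ reporter, had been recombined into the domain telomeric to the HoxD cluster on chromosome 2. The forelimb was divided into a distal (DFL) and a proximal (PFL) part, and each part and the forebrain (FB) were sampled in 2 replicates per genotype, which makes 8 limb and 4 forebrain libraries. A further wt DFL library, for which an earlier sample had been processed again, is given separately. None of the 9 genes lies on chromosome 2. On mm10 they are Trp63 (chr16:25683763-25892102), Krt5 (chr15:101707070-101712898), Krt14 (chr11:100203162-100207548), Grhl2 (chr15:37233036-37363569), Grhl3 (chr4:135541888-135573630), Cdh1 (chr8:106603351-106670246), Epcam (chr17:87635979-87651129), Esrp1 (chr4:11331933-11386783) and Ovol1 (chr19:5549136-5560646).

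The limb bud is mesenchyme wrapped in a thin surface ectoderm, and its distal margin is thickened into the apical ectodermal ridge, a source of growth signals for the mesenchyme below. Surface ectoderm is built on a small circuit of transcription factors: p63, encoded by Trp63, maintains stratified epithelium, the grainyhead-like factors Grhl2 and Grhl3 activate junction genes, and Ovol1 restrains the passage to a mesenchymal state. Their outputs include E-cadherin (Cdh1) and the adhesion molecule Epcam, the splicing regulator Esrp1 and the basal keratins Krt5 and Krt14. Whole limb tissue was assayed here, so that ectoderm is a minority of the cells, and in such a bulk sample fewer ectodermal cells and less accessibility per cell cannot be told apart.

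The sequences of 8 regions on which the results turn are given first, as windows of up to 200 bp around the summit, read 5′ to 3′ on the plus strand of GRCm38 and without exon bases. They comprise the Trp63 intronic region with the largest difference in strength between limb and forebrain, the intronic Krt14 region, 5 regions called in every limb library and in no forebrain library, and the window at the Cdh1 start. Capitals mark matches, on either strand, to 6 letter patterns: AACCNGTT for grainyhead-like factors, CATG, any 6 bases and CATG again for p63, TGANTCA for AP-1, GCCNNNGGC for TFAP2, GGAATG for TEAD and CAGGTG for the E-box bound by Zeb and Snail repressors.
Trp63 intron, chr16:25746935-25747134: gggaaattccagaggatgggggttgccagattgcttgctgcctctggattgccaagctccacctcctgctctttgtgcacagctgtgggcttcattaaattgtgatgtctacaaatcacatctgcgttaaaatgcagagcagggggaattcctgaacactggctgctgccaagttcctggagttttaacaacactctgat
Trp63 downstream, chr16:25954790-25954989: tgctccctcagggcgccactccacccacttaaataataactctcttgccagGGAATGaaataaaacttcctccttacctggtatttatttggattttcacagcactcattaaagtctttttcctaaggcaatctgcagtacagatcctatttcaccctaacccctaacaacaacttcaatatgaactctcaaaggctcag
Krt14 intron, chr11:100203539-100203738: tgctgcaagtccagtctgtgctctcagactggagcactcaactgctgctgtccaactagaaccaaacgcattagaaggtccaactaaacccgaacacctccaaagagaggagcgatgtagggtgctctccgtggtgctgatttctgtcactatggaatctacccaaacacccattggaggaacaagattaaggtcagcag
Grhl2 upstream, chr15:37197989-37198188: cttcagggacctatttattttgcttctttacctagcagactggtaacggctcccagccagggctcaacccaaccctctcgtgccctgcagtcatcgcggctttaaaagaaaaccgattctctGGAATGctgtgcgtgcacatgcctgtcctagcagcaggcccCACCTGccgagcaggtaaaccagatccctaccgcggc
Grhl2 downstream, intron of Ncald, chr15:37432649-37432848: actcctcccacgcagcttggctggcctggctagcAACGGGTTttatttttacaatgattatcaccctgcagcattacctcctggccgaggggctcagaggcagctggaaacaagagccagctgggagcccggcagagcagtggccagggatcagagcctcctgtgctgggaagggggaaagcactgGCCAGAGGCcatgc
Epcam upstream, chr17:87628804-87629003: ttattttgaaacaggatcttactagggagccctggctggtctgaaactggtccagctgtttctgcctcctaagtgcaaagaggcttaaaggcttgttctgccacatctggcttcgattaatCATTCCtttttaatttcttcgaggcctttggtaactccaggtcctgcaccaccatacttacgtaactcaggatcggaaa
Cdh1 upstream, intron of Cdh3, chr8:106539389-106539588: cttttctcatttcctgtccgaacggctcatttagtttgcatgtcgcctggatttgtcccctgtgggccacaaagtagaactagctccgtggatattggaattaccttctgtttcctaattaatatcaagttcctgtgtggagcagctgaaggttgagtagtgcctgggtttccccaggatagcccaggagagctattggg
Cdh1 start, chr8:106603241-106603350: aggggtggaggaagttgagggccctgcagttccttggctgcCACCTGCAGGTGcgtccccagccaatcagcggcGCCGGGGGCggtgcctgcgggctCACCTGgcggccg
The Cdh1 window, which ends at the base before the annotated start, held 3 matches to the E-box, of which the first 2 adjoin each other, and 1 to the TFAP2 pattern. A full grainyhead-like match stood in the region in the Ncald intron downstream of Grhl2. Matches are a description of the letters and not a measurement of binding.

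Depth was estimated from the deposited values at 37.5 to 54.5 M (mega) tags in limb and 51.4 to 70.7 M in forebrain libraries, with 80983 to 112746 and 89470 to 104763 regions, respectively. The 542 libraries ranged from 37.5 to 64.5 M and the wt libraries from 44.0 to 70.7 M. Between 99 and 140 regions per library fell at the 9 genes, with a median of 31 tags under a summit. The fold given below is a ratio, taken inside one library, of tags at the summit to tags of the surrounding background, with 1 added to both. The labelled tissues were checked by the number of regions around marker genes per 10000 regions of a library. At an adjusted p under 0.05, 12.51% of all genes were higher in limb and 14.13% in forebrain. Hoxa13 and Hoxd13 were higher in limb, and 6 of 8 forebrain genes (Emx2 and Sox2 among them) were higher in forebrain. Of 6 mesenchyme genes Prrx1 was higher in limb and Pdgfra in forebrain. Of 5 genes of blood and endothelium Gata1 was higher in forebrain, and none of 3 muscle genes nor Meis1, a proximal limb gene, passed between limb and forebrain. Between the limb parts, Meis1 had 2.79 in PFL and 1.95 in DFL, and Hoxa13 had 2.15 and 2.56. Each had an exact permutation p of 0.0286 (adjusted p = 0.236). At an unadjusted p under 0.05, 4.09% of all genes were higher in DFL and 8.01% in PFL. Hoxd13 had 2.06 in PFL and 2.25 in DFL (exact p = 0.0857, adjusted p = 0.357).

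The starts of the 9 genes differed in accessibility. Protein-coding transcript starts of a gene within 500 bp were counted as one start, and a start was counted as called when a region lay within 250 bp of it. Of the 14 starts of these genes, 1 was called in all 12 libraries, against 42.2% of all 32341 protein-coding starts, and 5 were called in no library, against 45%. Another 4 were called in limb and in no forebrain library (4.7% of all starts), and none in forebrain alone (1.73%).

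The Grhl2 start was called in 8 of 8 limb libraries, with folds between 3.09 and 4.06 and a median of 3.6, and in 0 of 4 forebrain libraries, a pattern found at 0.467% of all starts. The exact test gave p = 0.00202, and after Benjamini-Hochberg adjustment over all starts p = 0.204, so that no start passed the threshold in Fisher's exact test, whereas 1 of the 14 (Grhl2) and 0.915% of all starts were higher in limb at an unadjusted p under 0.05 (0 of the 14 and 1.03% of all were higher in forebrain). A separate region upstream, with its summit 0.8 kb from the start in an exon of Gm16136, was called in all 4 forebrain libraries at folds of 4.20, 4.68, 4.24 and 3.41, and joined with the start it formed a consensus region present in all 12 libraries. Counting by consensus region therefore did not show this pattern of calls near the start, which did not pass the adjusted threshold. The limb folds at the start are those of the strongest summit of the region that reaches it, and equal the limb folds of the consensus region. In the earlier wt DFL library the fold was 2.98 at the start and 4.27 in the consensus region, so that this library also had a region away from the start.

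The first Trp63 start, from which the isoforms with the full transactivation domain (TAp63) are transcribed, was called in 6 of 8 limb libraries at folds of 2.70 to 4.42 and in none of the forebrain libraries (exact p = 0.0606). Only 2 of these regions covered the start itself. At the internal start of the ΔN isoforms, which prevail in basal epithelium, no region was called in any library, the earlier one included, and the nearest region, 1.1 kb away in the gene body, was called in both wt PFL libraries at folds of 2.90 and 2.71. Ovol1 was called at its start in 5 of 8 limb libraries at folds of 2.63 to 3.81 and in no forebrain library. The Krt5 start was called only in 542 PFL replicate 2, at a fold of 3.79, and the Krt14 start in no library. Reads that mapped with low quality had been removed, and how far this touches keratin genes with close copies was not tested.

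The 3 remaining alternative starts, 1 each of Grhl2, Esrp1 and Ovol1, were called in no library, and those described next were called in both tissues. The first Epcam start was called in 8 of 8 limb and 2 of 4 forebrain libraries (exact p = 0.0909). Regions covered that start itself in 4 limb libraries and in no forebrain library (exact p = 0.208). The second Epcam start was called in 12 of 12 libraries, at folds of 3.75 to 7.99 in limb and of 5.93, 6.99, 5.19 and 7.31 in forebrain, and these ranges overlap. The Cdh1 start was called in 7 of 8 limb libraries at 3.17 to 5.99 and in 3 of 4 forebrain libraries at 4.05, 3.4 and 3.03. Grhl3 was called at its start in 5 limb and 3 forebrain libraries, the latter at folds of 2.67, 2.87 and 2.73. The Esrp1 start was called in 6 limb and 2 forebrain libraries. None of the forebrain regions covered the Esrp1 start itself, as those of the 6 limb libraries did (exact p = 0.0606).

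**Figure D1:**
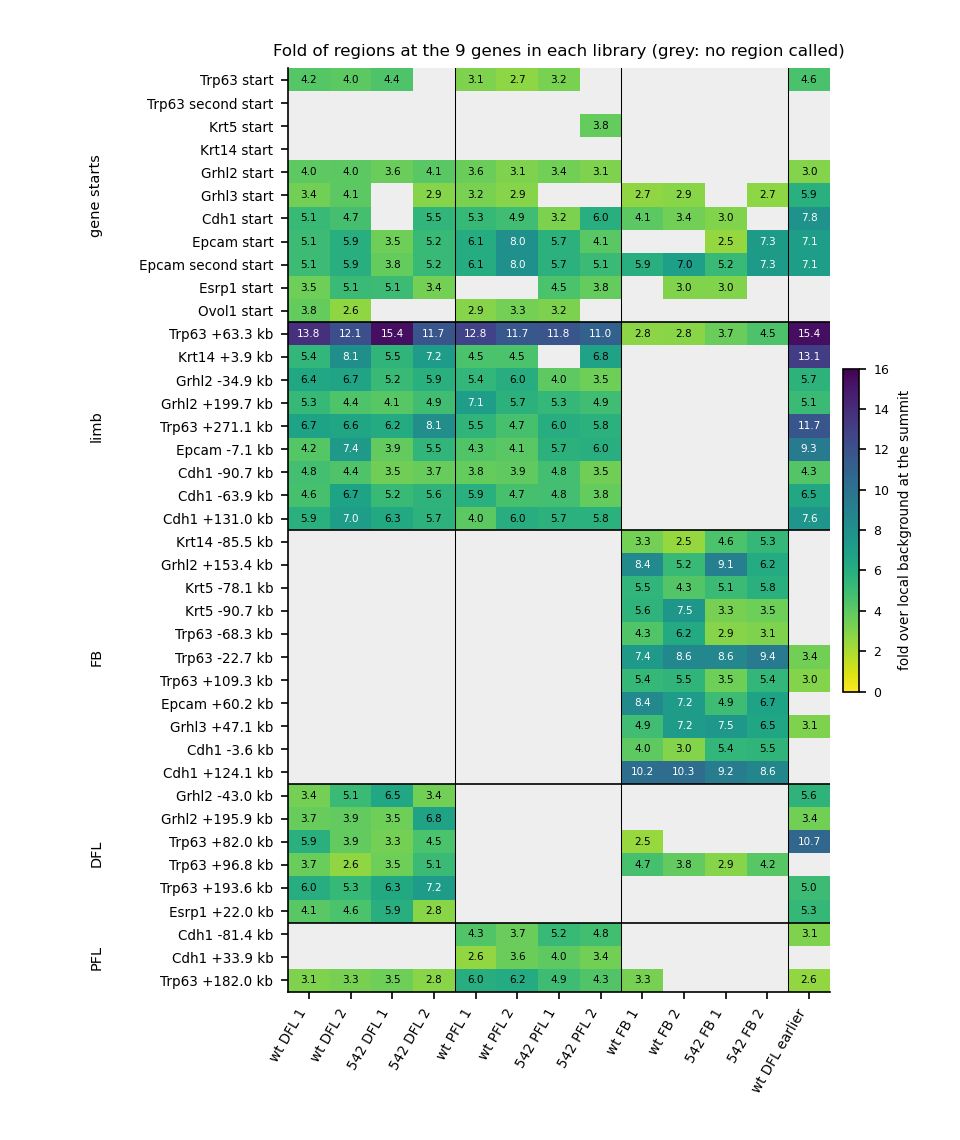
Fold over local background at the summit for each library (columns; 12 compared libraries and the earlier wt DFL library) at the starts of the 9 genes (regions within 250 bp) and at the regions named in the text, labelled by distance from the gene's first start in the direction of transcription. Grey cells are libraries with no called region; the Trp63 region at 63.3 kb reached 11.04 to 15.4 in limb and 2.80 to 4.46 in forebrain.

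Among the 41 regions at the 9 genes that were called in all 12 libraries, the largest difference between limb and forebrain lay inside Trp63. A region of 741 bp in an intron, 63.3 kb from the first start (chr16:25746720-25747460, 54881 bp before the ΔN start), had folds of 13.8 and 12.1 in wt DFL, 15.4 and 11.7 in 542 DFL, 12.8 and 11.7 in wt PFL and 11.8 and 11.04 in 542 PFL. Forebrain folds reached only 2.80 and 2.84 in wt, with 3.67 and 4.46 in 542. The 8 limb values do not overlap the 4 forebrain values. The summit held 77 to 145 tags in limb and 19 to 28 in forebrain libraries. In limma on the log2 fold centred by each library's median, limb exceeded forebrain by 2.06 ± 0.11 (SE, log2, n = 8 and 4), with an adjusted p of 1.4e-08 over 27032 regions called in all 12 libraries. DFL and PFL differed there by 0.10 ± 0.10 (SE, log2, adjusted p = 0.562).

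The 62 consensus regions at Trp63 varied in their pattern, and regions strong in limb and in forebrain were interspersed. Of them, 54 had a Trp63 start as their nearest protein-coding start, 35 lay in introns, and 3 were called in all 12 libraries. Regions 7.1 and 54.1 kb from the first start were strong in forebrain, at folds of 5.84, 8.51, 12.0 and 8.46 and of 10.9, 10.8, 12.7 and 8.93, and were called in only 3 and 5 of 8 limb libraries, at folds up to 4.61 and 7.53. A region 22.7 kb upstream of the gene, called in none of the 8 limb libraries, had forebrain folds of 7.39, 8.56, 8.57 and 9.37, and the earlier wt DFL library had a region there at 3.43. The forebrain region at 54.1 kb lay less than 10 kb from the limb region at 63.3 kb.

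**Figure D2:**
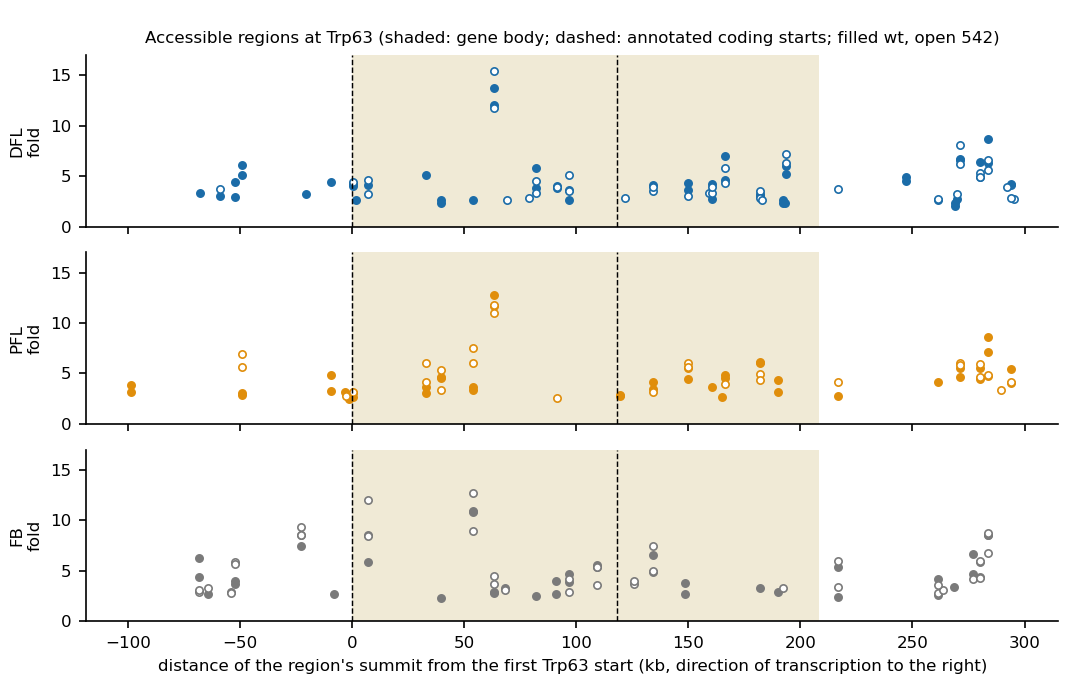
Fold of each called region at Trp63 (vertical axis) against the distance of its summit from the first start in kb (horizontal axis), in DFL, PFL and FB, with wt libraries filled and 542 libraries open. The limb values of 11.04 to 15.4 at 63.3 kb stand above every other limb region of the locus, whereas forebrain peaks at 54.1 kb.

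Regions were next compared by whether they were called at all. With Fisher's exact test, only regions called in all libraries of one tissue and in none of the other passed (p = 0.00202, adjusted p = 0.0197 over 252026 regions). In limb these were 7 of the 259 regions at the 9 genes (2.70%), against 3.81% of all regions, and in forebrain 11 of 259 (4.25%), against 6.43%. Neither share exceeded that of the genome. Replicates were pools of embryos, so that no p-value here or below measures the spread between single embryos. Fisher's p follows from the numbers of libraries called alone and measures no spread. In the permutation tests between tissues or limb parts below, each side holds both genotypes, and limb also holds both parts. Those p-values, and the SD given with them, therefore include such differences besides the spread between replicate pools. With any forebrain library left out, 8 against 3 libraries allowed no call.

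None of the 7 limb regions overlapped a start: 4 were intronic and 3 intergenic. At Grhl2, a region 34.9 kb upstream had folds from 3.5 to 6.65 (median 5.62) over the 8 limb libraries, and a region 199.7 kb downstream of the start, in Ncald, had folds from 4.15 to 7.07 (median 5.10). At Trp63 the limb region lay 62.8 kb beyond the gene's end, at 4.67 to 8.08 (median 6.11). At Epcam it lay 7.1 kb upstream of the start, at 3.87 to 7.35 (median 4.91).

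At Cdh1 there were 3 limb regions. Of these, 2 stood in the introns of the adjacent P-cadherin gene Cdh3, 90.7 and 63.9 kb upstream of the Cdh1 start, with folds of 3.49 to 4.80 (median 3.84) and 3.79 to 6.75 (median 5.02). The third lay in an intron of Tango6, 64.1 kb beyond the end of Cdh1, at 4.02 to 7.0 (median 5.83). The nearest protein-coding start was that of a member gene for only 2 of the 7 regions, one at Grhl2 and one at Epcam, so that assignment of the others to these genes rests on distance alone.

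Another 9 regions (3.47%, against 1.81% of all regions) were called in 7 of 8 limb and no forebrain library, 2 each at Grhl2, Trp63, Epcam and Grhl3 and 1 at Krt14, which had no region of the full pattern. The Krt14 region had the highest median fold of the 9. In an intron 3.9 kb from the start and 0.5 kb before the gene's end (chr11:100203459-100203826), folds were 5.42 and 8.05 in wt DFL, 5.53 and 7.17 in 542 DFL, 4.50 and 4.52 in wt PFL and 6.79 in 542 PFL replicate 2. No region was called there in 542 PFL replicate 1 or in any of the 4 forebrain libraries. Fisher's exact test gave p = 0.0101 and an adjusted p of 0.0754.

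The forebrain regions were again away from starts, with 6 intronic and 5 intergenic. With the earlier wt DFL library counted as limb, 8 of the 11 calls were left. The strongest, at folds of 10.2, 10.3, 9.20 and 8.62, lay in Tango6 downstream of Cdh1, less than 10 kb from the limb region in the same gene. Others included the region 22.7 kb upstream of Trp63, a region in Ncald downstream of Grhl2 (8.41, 5.25, 9.12 and 6.15) and a region 3.6 kb upstream of the Cdh1 start (3.97, 2.98, 5.44 and 5.54). Krt5 had 2, both beside keratin genes of the same cluster (Krt72 and Krt73) and 78.1 and 90.7 kb from the Krt5 start.

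Regions called in all 12 libraries could be compared by strength. Of 41 such regions at the 9 genes, 5 were stronger in limb (12.2%, against 24% of all 27032) and 1 in forebrain (2.44%, against 15.9%) at an adjusted p under 0.05 in limma. The median difference was 0.02 on the log2 scale over the 41 regions and 0.03 over all regions. Apart from the Trp63 intron, the differences were small. A region that covers part of the Esrp1 start, with its summit 1.5 kb upstream, was higher in limb by 0.40 ± 0.12 (SE, log2, adjusted p = 0.0149), with folds of 3.79 to 5.91 in limb and of 4.59, 4.04, 3.68 and 4.48 in forebrain, which overlap. A region 97.2 kb upstream of Grhl2 was higher in limb by 0.32 ± 0.11 (adjusted p = 0.0276). Its folds were 8.13 to 10.39 in DFL, 6.42 to 7.89 in PFL and 7.08 to 7.74 in FB. Before centring, the DFL folds thus lay above those of forebrain, whereas the PFL folds overlapped them. The Esrp1 call was lost without wt FB replicate 2 or 542 FB replicate 1 (adjusted p = 0.0697 and 0.0872), and the Grhl2 call without wt DFL replicate 1, wt PFL replicate 2 or any forebrain library (0.0565 to 0.102).

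The other 2 were starts of neighbouring genes, Mus81 near Ovol1 (0.52 ± 0.12, adjusted p = 0.00425) and Ints8 near Esrp1 (0.14 ± 0.05, adjusted p = 0.0293). The forebrain region lay 64.2 kb upstream of Epcam, at folds of 10.1 to 11.9 in limb and 16.1, 12.6, 14.1 and 15.3 in forebrain, a log2 difference of -0.21 ± 0.07 (adjusted p = 0.037). Its call was lost on leaving out any of 7 libraries (wt DFL 2, 542 DFL 1, wt PFL 2, 542 PFL 2, wt FB 1 and both 542 FB), with adjusted p from 0.059 to 0.226, and that of Ints8 without wt DFL 2, wt PFL 2, wt FB 1 or 542 FB 2 (0.0544 to 0.223). Without centring, the median difference over all regions was -0.145 in place of 0.0336. Of the 41 regions at the 9 genes, 2 were called higher in limb and 11 in forebrain, against 3559 and 10574 of all 27032. Ints8 then turned to -0.04, whereas the Trp63 intron kept its call in each of its refits, at 1.88 to 2.12.

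**Figure D3:**
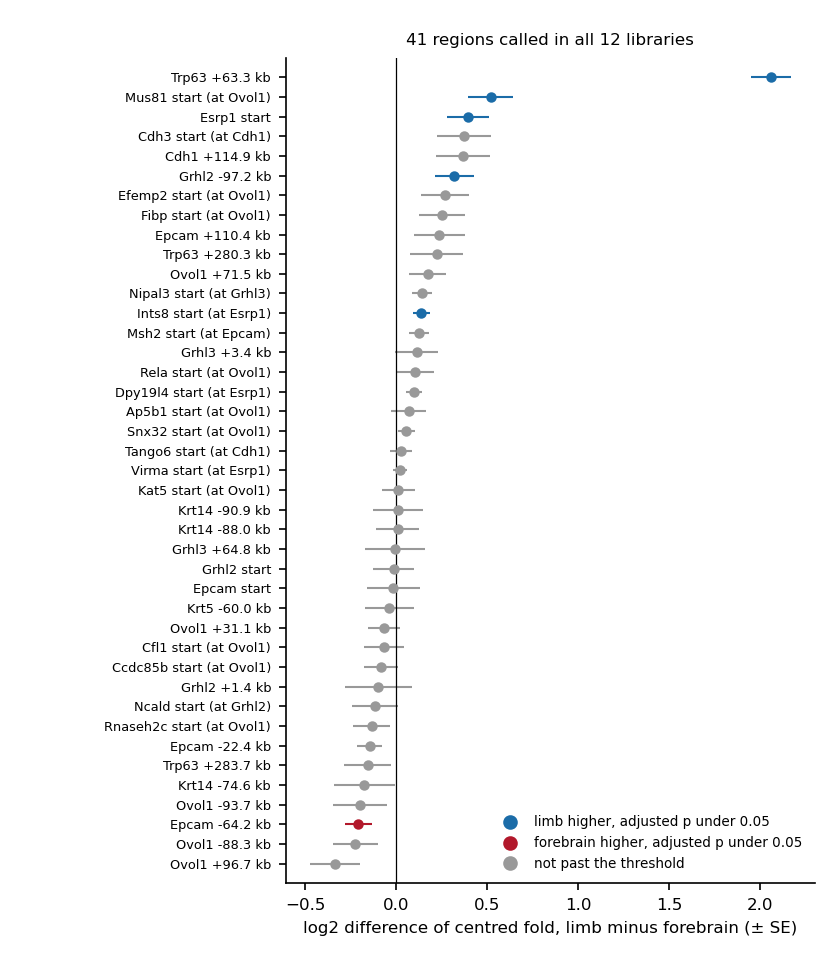
Difference of the centred log2 fold between 8 limb and 4 forebrain libraries (horizontal axis, points with SE) for the 41 regions at the 9 genes called in all 12 libraries, one per row. The Trp63 intron stands at 2.06, and the next largest, at the Mus81 start, at 0.52.

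The number of regions within 100 kb of each gene, per 10000 regions of the library, was compared by exact permutation of the tissue labels over all 19633 protein-coding genes. Cdh1 had 1.99 ± 0.29 (SD, n = 8) in limb and 1.32 ± 0.15 (SD, n = 4) in forebrain (exact p = 0.00404, adjusted p = 0.0214), from 16 to 23 against 11 to 16 regions. Grhl2 had 1.89 ± 0.22 against 1.46 ± 0.08 (exact p = 0.00404, adjusted p = 0.0214). Limb lay above forebrain without overlap at these 2 genes, as it did at 9.24% of all genes. Epcam had 1.44 ± 0.26 against 0.99 ± 0.08 (exact p = 0.0121, adjusted p = 0.0455), with overlap. Krt5 went the other way, with 0.17 ± 0.09 against 0.50 ± 0.15 (exact p = 0.00404, adjusted p = 0.0214), from 1 to 3 and 3 to 6 regions.

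Thus 3 of 9 genes were higher in limb, against 12.51% of all genes, and 1 in forebrain, against 14.13%. These counts changed with the width of the surroundings: with 10 kb on each side none of the 4 passed. Krt5 then turned to a difference of 0.0418 per 10000 in favour of limb. This rests on regions 2.8 kb beyond its end and at its start, called in 2 and 1 limb libraries and in no forebrain library. Among the 50000 strongest regions of each library, Epcam turned to -0.125. The Epcam call was lost on leaving out any library other than wt DFL replicate 1, with adjusted p from 0.0643 to 0.116, and the Grhl2 call without 542 DFL replicate 2 or any of the 4 forebrain libraries (0.0555 to 0.0851). The Krt5 call was lost without wt FB replicate 1 or either 542 FB library (0.0535 to 0.0559), and that of Cdh1 held throughout.

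**Figure D4:**
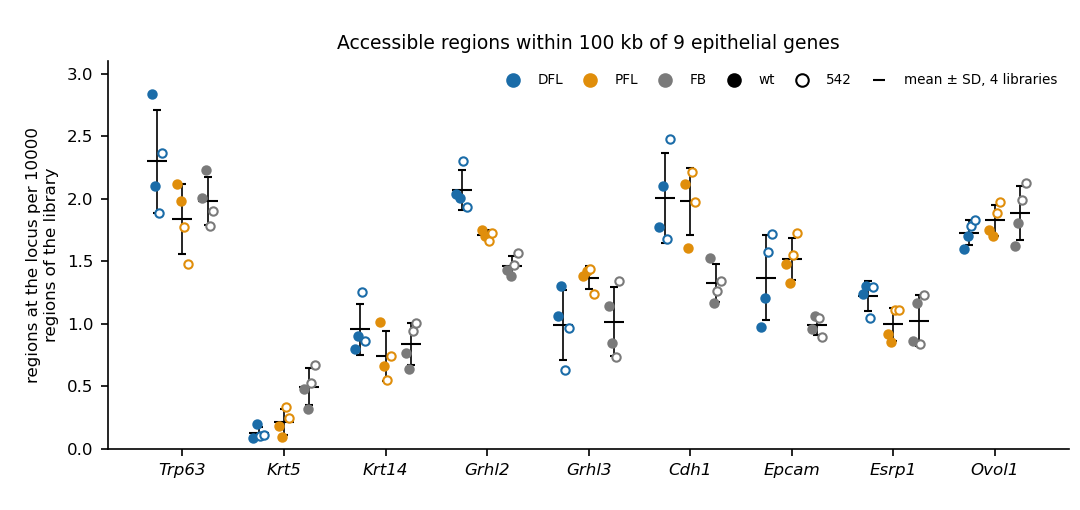
Regions within 100 kb of each gene per 10000 regions of the library (vertical axis) in DFL, PFL and FB, with one point per library (wt filled, 542 open) and bars for the mean and SD of 4 libraries. Limb points lie above all forebrain points at Cdh1 and Grhl2.

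Other genes of epithelia and of the ridge were counted in the same way. Against the same shares of all genes (12.51% and 14.13%), 3 of 27 further epithelial genes were higher in limb, among them Perp, a desmosomal p63 target, and Lamb3, a laminin chain of the basement membrane, and 1 was higher in forebrain (Rab25, a small GTPase of epithelial recycling). Lamb3 had a difference of 0.727 per 10000 regions (exact p = 0.00202, adjusted p = 0.0138) and Perp one of 0.445 with the same p-values. The median difference over the 27 genes was -0.0369 per 10000, and -0.0054 over all genes. Of 12 ridge and ectoderm signalling genes, none was higher in limb (12.51% of all genes) and 3 were higher in forebrain (14.13% of all genes), namely Wnt7a, Dlx5 and Dlx6, genes that forebrain also uses and of which the last 2 are adjacent. Fgf8, the main growth factor of the ridge, had 1.09 per 10000 in DFL, 1.26 in PFL and 1.09 in FB.

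Between the limb parts, calls differed at few regions. Of 212 regions called in some limb library, 6 were called in all 4 DFL and no PFL library (2.83%, against 2.69% of all regions) and 2 in all 4 PFL and no DFL library (0.943%, against 1.95%), the latter 5 without wt DFL replicate 1. Of the 6, 3 were at Trp63, 2 at Grhl2 and 1 at Esrp1, and 5 were intronic. The strongest lay in Trp63, 193.6 kb from the first start, with DFL folds of 6.04, 5.25, 6.27 and 7.24 and no call in PFL or FB. At 82.0 kb the DFL folds were 5.86, 3.85, 3.32 and 4.53, and wt FB replicate 1 alone outside DFL had a region, at 2.45. In Esrp1 an intronic region 22.0 kb from the start had 4.10, 4.55, 5.90 and 2.83.

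Both PFL regions were near Cdh1. One was intronic in Cdh1 itself, 33.9 kb from the start, with PFL folds of 2.57, 3.62, 3.96 and 3.4, and the other in Cdh3, 81.4 kb upstream, at 4.34, 3.68, 5.24 and 4.82. No DFL or FB library of the 12 had a region at either, but the earlier wt DFL library had one at the latter, at a fold of 3.11.

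In strength, 51 regions called in all 8 limb libraries were tested. DFL was higher at 1 (1.96%, against 6.92% of all 41243 regions), the start of the adjacent gene Nipal3 at Grhl3 (0.19 ± 0.06, SE, log2, adjusted p = 0.0486), a call lost on leaving out any library but 542 DFL replicate 1 (adjusted p up to 0.174). PFL was higher at 2 (3.92%, against 6.96%). A Trp63 intronic region 182.0 kb from the start had folds of 3.08, 3.28, 3.5 and 2.83 in DFL and 6.04, 6.16, 4.95 and 4.34 in PFL, which do not overlap, a log2 difference of -0.81 ± 0.16 (adjusted p = 0.00371). The DFL region at 193.6 kb lies in the same gene. The second was a region over a Tango6 exon beyond Cdh1, with 2.64, 3.33, 2.58 and 3.02 in DFL and 5.31, 5.73, 3.37 and 3.99 in PFL (-0.71 ± 0.16, adjusted p = 0.00987).

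The number of regions per locus did not pass the adjusted threshold for any gene between DFL and PFL (0% of 19511 genes), since 4 against 4 libraries allow no exact p under 0.0286 and no adjusted p under 0.236 here. At an unadjusted p under 0.05, Grhl2 alone of the 9 was higher in DFL, with 2.07 ± 0.16 against 1.71 ± 0.04 (SD, n = 4 each, exact p = 0.0286) and no overlap, which 4.09% of all genes also showed.

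Between genotypes, few regions at the 9 genes differed in their calls and none in strength. Of 212 limb regions, 1 was called in all 4 wt and no 542 library (0.472%, against 0.517%), in an intron of Krt19 near Krt14, at 3.22, 4.03, 2.57 and 2.71, and 0 were called in 542 alone (0.041% of all). Of 134 regions called in forebrain, 3 were called in both wt and neither 542 library (2.24%, against 4.25%) and 3 in the reverse pattern (2.24%, against 2.12%), each from 2 libraries per genotype, with mean folds from 3.22 to 4.22. With 1 forebrain library left out, the pattern rests on 1 library of one genotype, and these counts rose whichever library it was. With fewer libraries to satisfy, they can only stay or rise, and the share over all regions is not given. In strength, limma called 0 of 51 limb regions in either direction (0.359% of all regions higher and 0.366% lower in 542), with 2 higher and 3 lower at an unadjusted p under 0.05 (8.92% and 6.9% of all regions). In forebrain 0 of 41 were called (0.0481% and 0.0259% of all), with 2 higher and 0 lower unadjusted (4.05% and 2.94% of all).

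The lowest limb p belonged to a region in Tango6 near Cdh1, with 11.6, 10.9, 9.81 and 7.69 in wt and 5.16, 7.55, 6.34 and 6.79 in 542, a log2 difference of -0.55 ± 0.15 (adjusted p = 0.0964). The Trp63 intron at 63.3 kb differed between genotypes by 0.05 ± 0.10 in limb (adjusted p = 0.843). In forebrain, where it was weak, 542 was higher by 0.58 ± 0.18 (adjusted p = 0.384). The change from wt to 542 was not called different between DFL and PFL at any of the 51 regions (0% of all, limma interaction), and 1 was higher at an unadjusted p under 0.05 (3.26% of all). By number of regions no gene passed (0% of 19633). At an unadjusted p under 0.05, Ovol1 was higher in 542 (1.93 ± 0.12 against 1.70 ± 0.08, SD, n = 6 each, exact p = 0.00926, adjusted p = 0.176) and Trp63 in wt (2.21 ± 0.32 against 1.87 ± 0.29, exact p = 0.0463, adjusted p = 0.258), against 14.7% and 3.29% of all genes, respectively. The 542 libraries were the shallower in each limb part, and the part of depth in these counts was not tested.

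By position, 28 of the 259 regions overlapped a protein-coding start, 123 were intronic and 91 intergenic, and 125 had a start of one of the 9 genes as the nearest. At Trp63 these were 54 of 62 and at Ovol1 1 of 20, where 11 regions overlapped a start and 15 were called in all 12 libraries. In all, 41 regions were called in every library and 65 in a single one, and 125 were called in no forebrain library against 47 in no limb library, from 8 and 4 libraries.

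Windows of 200 bp on the summits were searched for the same patterns in all regions. The grainyhead-like pattern stood in 8 of 259 windows (3.09%) and in 1.47% of all 252026 windows. The p63 pattern stood in 2 (0.772%, against 0.563%), the AP-1 pattern in 9 (3.47%, against 6.99%), TFAP2 in 18 (6.95%, against 6.94%) and TEAD in 39 (15.1%, against 15.0%). The E-box stood in 57 (22.0%, against 13.8%). The median GC content of the windows was 50% at the 9 genes and 47% over all. Of the 7 limb regions, 3 held the TEAD pattern, which 20.9% of all limb-only regions held, and 2 the E-box (16.4% of all). The grainyhead-like pattern stood in 1 (1.74% of all limb-only regions) and the TFAP2 pattern in 1 (6.2%). None held the p63 pattern (0.51%) or the AP-1 pattern (7.0%). Windows over the Trp63 intron and the Krt14 intron held none of the 6.

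The earlier wt DFL library, which was kept out of the comparisons above, was the deepest at 78.0 M tags. It had a region at the Krt14 intron at a fold of 13.1, against 5.42 to 8.05 in the 4 DFL libraries, a ratio to their mean of 2.00 that 3.398% of 56500 regions exceeded. The Trp63 region 62.8 kb beyond the gene's end reached 11.7 (6.18 to 8.08 in the 4) and the Epcam region upstream of the start 9.32 (3.87 to 7.35). Their ratios of 1.70 and 1.78 were exceeded by 9.29% and 7.19% of the 56500 regions. The Trp63 intron at 63.3 kb, at 15.4, was within the range of the other DFL libraries. Over all 74 regions at the 9 genes called in the 4 DFL libraries and the earlier one, the median ratio was 1.19, close to 1.18 over all regions.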

How the data were processed

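ATAC-seq was done on 13 libraries of 50000 cells each. The authors trimmed reads with cutadapt, mapped them with Bowtie (wt on mm10, 542 on a genome rebuilt with the insertion on chromosome 2), removed poorly mapped reads (bamtools) and duplicates (Picard), converted the reads to BED (bedtools) and called regions in each library with MACS2, without pooling. The deposited fold at a summit is a ratio to local background, and the deposited −log10 of p and q accompanies it, with a lowest −log10 q of 1.30. The deposited score column and one summit offset per region were also present, and of these only the offset was used. Regions on chromosome 2 beyond 75 Mb and on unplaced sequences were left out.

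Regions of 12 libraries that overlapped by at least 1 bp were joined into 252026 consensus regions. Calls in limb and forebrain were compared with Fisher's exact test (two-sided, scipy 1.17.1), strength with limma 3.58.1 (R 4.3.3, trend) on the log2 fold centred by library median, and regions per locus by exact permutation (two-sided, within tissue for genotype), each with Benjamini-Hochberg adjustment over all features and a threshold of 0.05. DFL against PFL and wt against 542 were counted by call pattern with no test. Tags were derived from the deposited p and fold, and depth from the background they give. Depth limits what is called: a region not called is not shown to be closed. Scripts were tested on simulated data. Named were the regions over the genes' starts, the strongest limb region per locus and up to 5 regions per comparison and direction. The genes, lists and tests were chosen with earlier results of these data known, and the counts at starts after seeing them here. Some items are not reported here. Alternatives were a stricter q, the 50000 strongest regions, 500 bp windows, other centring, 10 kb flanks, the replicate block, the earlier library and leaving out each library.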

Additional observations from a re-analysis of the deposited data

Results flagged for a closer look

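Chance alone marks about 1 in 20 groups of 4 libraries as holding a value far from the rest, and 3 of 99 such groups were marked here. At Krt5, wt DFL replicate 2 had 0.2 regions per 10000 (0.2004), above the other 3 DFL libraries, a step from 1 region to 2. In the region 195.9 kb from the Grhl2 start called in DFL but not in PFL, 542 DFL replicate 2 had a fold of 6.785, against 3.53 to 3.86 in the other 3. In the limb region of Tango6 beyond Cdh1, wt PFL replicate 1 had a fold of 4.021, against 5.74 to 6.03 in the other 3 PFL libraries. In the earlier wt DFL library, which entered no comparison, the Trp63 intronic region at 82.0 kb had a fold of 10.71, against at most 5.86 in the 12 compared libraries. Its ratio to the mean of the 4 DFL libraries, 2.44, was exceeded by 0.805% of all regions called in those 4 and in the earlier library.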

How the results depend on the processing

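Counts below are of regions or genes at the 9 loci. Where no count over all regions or genes stands beside them, they do not show a difference from the genome. At a −log10 q of at least 10, calls were 3 in limb, 2 in DFL, 0 in PFL, 0 in limb wt and 7 in forebrain wt, and among the 50000 strongest regions 4 in limb, 7 in forebrain, 2 in DFL, 1 in PFL and 0 in limb wt. With 500 bp windows 1 region was called in limb 542 alone. In strength, quantile normalization gave 2 limb and 2 forebrain calls of 41 (5010 and 5100 of all 27032 regions). No centring gave 2 and 11 (3559 and 10574 of 27032), and 3 of 51 in DFL (3462 of 41243). The 50000 strongest gave 3 of 28 in limb (3753 of 18934), and 0 of 32 in DFL and in PFL (959 and 789 of 25954). Regions per locus gave 0 limb and 0 forebrain genes with 10 kb flanks and 1 limb gene under both stricter lists. Reversed were Krt5 with 10 kb flanks (0.0418), Epcam with the 50000 strongest (-0.125) and the stricter q (-0.0513), and the Ints8 start without centring (-0.04002). The cause was not tested.

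Leaving out each library, call counts ran from 0 to 10 in limb and 0 to 11 in forebrain (0 without any forebrain library, when too few remain), 6 to 8 in DFL, 2 to 5 in PFL, 1 to 3 in limb wt, 0 in limb 542, 5 to 14 in forebrain wt and 4 to 11 in forebrain 542. Strength counts ran from 3 to 7 in limb, 0 to 3 in forebrain, 0 to 1 in DFL and 2 to 3 in PFL, and genes from 1 to 3 in limb and 0 to 1 in forebrain. All counts between genotypes in strength and of genes in the other comparisons stayed at 0. Call patterns counted without a test can only keep or raise their count when a library is left out. With the earlier library included, calls were 7 in limb and 8 in forebrain.

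In strength, at the 27032 regions called in all 12 libraries, same-numbered replicates did not deviate together (correlations from -0.0384 to 0.0155). In number of called regions they did, since replicate 1 had more than replicate 2 in every group, for example 112746 and 99784 in wt DFL. Whether the numbers pair the libraries was not tested further. With the replicate block, calls were 7 in limb and 11 in forebrain, strength 5 and 1 between tissues, 0 in DFL and 2 in PFL, and genes 2 in limb and 1 in forebrain. Depth differed between libraries, and a weak region may be missed in the shallower ones.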
